A study of Mus musculus with 187 samples.

Results

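Penk encodes preproenkephalin, the precursor of the enkephalins. Its mRNA was followed here in hearts from the HMDP, the Hybrid Mouse Diversity Panel, in which classical inbred strains are combined with recombinant inbred families derived from some of them. It is 1 of 36558 genes in the deposited tables and 1 of the 15942 genes that passed a filter on low counts, and it was found by its symbol, which matched 1 identifier, ENSMUSG00000045573. Penk was selected on its values in these same libraries, with its sex difference and its spread over strains already known, so its own levels, sex difference, agreement between the sexes and correlations are given as a description, with no test. There were 98 libraries from males and 89 from females. All mice were 16 weeks old. After 8 weeks on chow they had been switched to high-fat/high-sucrose food (HF/HS) for the last 8 weeks, so no group on chow throughout is part of these data. Both sexes were sequenced for 78 strains, only males for 18 and only females for 10. With the exception of 3 combinations of strain and sex that had 2 libraries each, a strain and sex was represented by 1 library. The labels do not say whether the libraries of these 3 combinations came from separate mice, and a difference between 2 strains or between the male and the female of 1 strain includes in nearly every strain the difference between single animals.

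Preproenkephalin carries several copies of the pentapeptides Met-enkephalin and Leu-enkephalin, which are released by cleavage at pairs of basic residues. Enkephalins act mainly through the delta and mu opioid receptors, which are coupled to inhibitory G proteins. In the heart Penk mRNA has long been known to be abundant relative to many other peripheral tissues, and enkephalins are studied there as local modulators of autonomic input and of the response to ischemia.

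Penk lies on the minus strand of chromosome 4 (GRCm38, 4133531 to 4138819). The GENCODE transcript used here has 2 exons, 1449 bases and 268 coding codons. Read in frame, its coding sequence held 6 copies that encode Met-enkephalin and 1 that encodes Leu-enkephalin, all of them in exon 2, with 6 different sequences among the 7 copies. The copies are the part of the message that gives rise to the peptides, and 4 of the 7 are shown: the identical first pair, the Leu-enkephalin copy and the last copy. Each is given 5′ to 3′ on the coding strand, with the 15 bases of the pentapeptide in capitals and the 2 codons on either side in lower case.
Met-enkephalin at codon 100, chr4:4134334-4134348: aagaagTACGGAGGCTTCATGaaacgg
Met-enkephalin at codon 107, chr4:4134313-4134327: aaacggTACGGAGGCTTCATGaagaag
Leu-enkephalin at codon 231, chr4:4133941-4133955: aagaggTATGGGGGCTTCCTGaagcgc
Met-enkephalin at codon 262, chr4:4133848-4133862: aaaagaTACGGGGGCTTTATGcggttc
The codons before each of the 7 copies encoded a pair of basic residues, and in 5 copies the codons after it did so as well. The copy at codon 262 lacked the pair after it, as did 1 copy that is not shown. The copies at codons 100 and 107 were identical over the 15 bases.

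Before the levels of Penk, the libraries were checked for what stood apart. Total estimated counts ranged from 28.99 M to 80.4 M per library. Summed Y-linked markers were between 11.8 and 110.9 TPM (a length-corrected share of all transcripts) in males and between 0.34 and 1.94 TPM in females, and the sexes did not overlap. Markers of ventricular cardiomyocytes were high in every library (summed level 24036 to 78746 TPM), as the label heart requires. Atrial markers ranged from 4.62 to 5256 TPM and blood markers from 766 to 76011 TPM, so the libraries differed in atrial tissue and blood. Transcripts of the mitochondrial genome took between 24.5% and 70.6% of TPM. The male C57BLKS/J library had lung markers summing to 134.4 TPM, against 22.1 TPM in the next highest library.

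Penk was a transcript of middling abundance. Its mean level over all libraries was 5.73 TPM ± 3.44 (SD), and 55.3% of the genes tested had a lower mean TPM. Whole counts for Penk ranged from 80 to 823 per male library (median 293.5) and from 44 to 429 per female library, so that counting alone gives an SD of 0.08 (log2) at the median of males and 0.12 at the median of females. Levels are given below as CPM, the count relative to the TMM-scaled library size, and differences as log2 CPM.

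In the 98 male hearts Penk ranged from 2.05 to 14.5 CPM, with a median of 7.07 CPM and a mean of 7.38 CPM ± 2.77 (SD). In the 89 female hearts it ranged from 1.03 to 7.35 CPM, with a median of 2.93 CPM and a mean of 3.20 CPM ± 1.35 (SD). The sexes overlapped: 43 of the 98 males were above every female, 17 of the 89 females were below every male, and the remainder lay in the range shared by both. On the TPM scale the means were 7.69 ± 3.43 in males and 3.56 ± 1.75 in females. In these bulk libraries, fewer cells that express Penk and less Penk RNA in each cell cannot be told apart.

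Within strains, Penk was higher in the male heart of 75 of 78 strains. The male minus female difference averaged 1.20 (log2 CPM, SD 0.59, SE 0.07), which corresponds to 2.31-fold, and it was above 1 in 51 strains and above 2 in 7. The largest differences were in BXH8/TyJ (6.01 CPM in the male and 1.17 CPM in the female) and CXB6/ByJ (13.2 CPM in the male and a mean of 2.71 CPM in 2 female libraries). In TPM the CXB6/ByJ male had 3.95 and the females 2.10 and 1.94, a narrower difference than in CPM. The 3 strains with a higher female value were BXD14/TyJ, BXD70/RwwJ and C57BLKS/J. BXD14/TyJ had 2.05 CPM in the male, the lowest male CPM of the panel, and 2.72 CPM in the female. BXD70/RwwJ had 4.45 CPM and 4.60 CPM, and C57BLKS/J had 5.15 CPM and 5.19 CPM. The latter differences, -0.05 and -0.01 (log2), were below the counting SD of a single library at the median of females (0.12), and the C57BLKS/J male is the library with lung markers. Without it the mean difference was 1.22 over 77 strains.

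C57BL/6J, the reference inbred strain and the strain most often used for heart experiments, also showed almost no sex difference in CPM. Its 2 male libraries had 4.34 and 4.94 CPM and its female library had 4.58 CPM, between both male libraries. In TPM the female had 5.11, above both males (3.94 and 4.04), so the direction depended on the unit. The male minus female difference was 0.02 (log2 CPM), and only the 3 strains named above had a smaller one. In the other parental strains of the recombinant inbred families the male value was the higher one. DBA/2J had 10.2 CPM in the male and 4.45 CPM in the female. BALB/cJ had 9.95 CPM and 2.82 CPM. C3H/HeJ had 7.17 CPM and 3.15 CPM. A/J had 4.67 CPM and 1.15 CPM, the widest of these differences at 1.98 (log2). With 1 mouse for each value these differences have no error of their own. After strain and sex had been taken out of the libraries of strains with both sexes, the residual SD was 0.42 (log2, 80 degrees of freedom). With 1 library per sex in nearly every strain this residual is made of the sex differences themselves, so it cannot show whether the sex difference varied between strains.

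**Figure D1:**
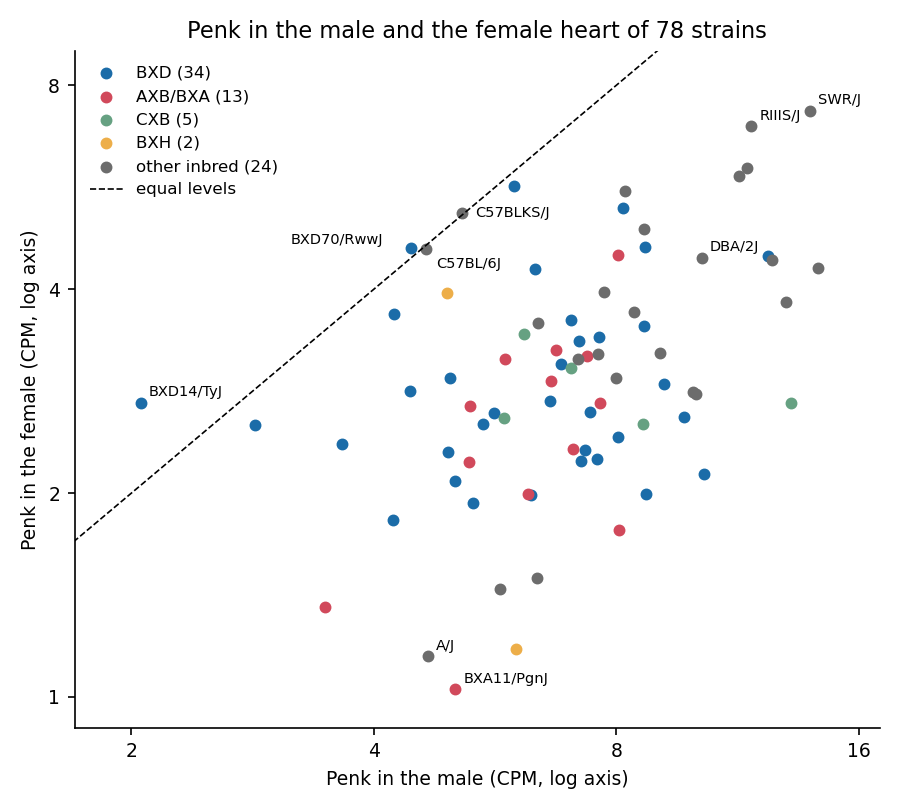
Penk in the male (x axis) and the female heart (y axis) of 78 strains, in CPM on log axes, 1 point a strain (the mean where a strain and sex had 2 libraries), with colors for the family and a dashed line of equal levels. All strains but BXD14/TyJ, BXD70/RwwJ and C57BLKS/J lie below the line, and SWR/J and RIIIS/J, high in both sexes, lie opposite A/J and BXA11/PgnJ.

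The male and female levels of a strain agreed in part. Over the 78 strains Pearson's r between male and female log2 CPM was 0.42 and Spearman's rho was 0.40. BXD14/TyJ and BXD44/RwwJ lay farthest from the median of males, and without them r was 0.45 (76 strains). For comparison, the median r between the sexes over all 15942 genes tested was 0.30, and 68.98% of genes had a lower r than Penk. The agreement differed between families: r was 0.18 within the 34 BXD strains, 0.59 within the 13 AXB/BXA strains and 0.55 within the 24 other inbred strains. The 13 AXB/BXA strains include AXB19/PgnJ, AXB19a/PgnJ and AXB19b/PgnJ, counted separately as labelled. The CXB and BXH families had too few strains with both sexes for a value of their own. Whether these values of r differ from each other was not tested.

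Strains were ordered by the mean of their libraries after the mean of the sex had been subtracted (sex-centred log2 CPM). Over the 78 strains with both sexes this level had an SD of 0.46 and spanned 2.19, or 4.57-fold. The standard error of a 2-library mean from the residual SD, which also holds any variation of the sex difference between strains, was 0.30. No neighbours in the order differed by more than the standard error of their difference (0.42): the largest of the 77 gaps was 0.17 and the median gap was 0.02. Gaps between neighbours among so many ordered values are small by construction.

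Among all strains of either kind SWR/J was highest, at 1.16 above the mean of its sex, with 13.9 CPM in the male and 7.35 CPM in the female, the highest female value of the panel. LP/J followed with 6.42 CPM in its only library, a female. SEA/GnJ had 14.5 CPM in its only library, the highest male CPM of the panel. In TPM the males of NOD/ShiLtJ and SWR/J, at 18.4 each, were above it (16.2). RIIIS/J had 11.8 CPM in the male and 6.96 CPM in the female, and FVB/NJ 11.6 CPM and 6.03 CPM. All of these 5 are inbred strains outside the recombinant families. The next, CXB7/ByJ, lay at 0.87 and was known from 1 male.

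The 5 lowest strains all belonged to the AXB/BXA family. BXA12/PgnJ was lowest, at -1.45, with 2.48 CPM in its only library, a male. BXA16/PgnJ had 1.16 CPM in its only library, a female, and AXB6/PgnJ 2.997 CPM in its only library, a male. BXA8/PgnJ had 3.48 CPM in the male and 1.36 CPM in the female. BXA11/PgnJ had 5.04 CPM in the male and 1.03 CPM in the female, the lowest female CPM of the panel. The next strain up was A/J, a parent of this family, at -0.94. The 3 lowest strains rest on 1 heart each.

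By family, the median sex-centred level was 0.30 in 29 other inbred strains (range -0.94 to 1.16), -0.02 in 45 BXD strains (-0.91 to 0.80), -0.25 in 20 AXB/BXA strains (-1.45 to 0.42), -0.38 in 6 BXH strains (-0.86 to 0.28) and 0.05 in 6 CXB strains (-0.21 to 0.87). With TPM or with library totals in place of TMM the CXB median was below 0 (-0.23 to -0.20), and the sign of the BXD median, which is close to 0, also changed with log2(TPM + 0.1) (0.0040). In male libraries the other inbred strains had 9.06 CPM ± 3.13 (SD, n = 29) and the AXB/BXA strains 5.74 CPM ± 1.72 (SD, n = 18). In female libraries the corresponding values were 4.08 CPM ± 1.64 (SD, n = 26) and 2.53 CPM ± 0.968 (SD, n = 15). The families overlapped in both sexes. The male minus female difference was 1.10 ± 0.62 (SD) in BXD, 1.36 ± 0.45 in AXB/BXA and 1.21 ± 0.57 in other inbred strains, and the male was higher in all 13 AXB/BXA strains, in 32 of 34 BXD strains and 23 of 24 other inbred strains.

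Recombinant inbred strains mix the genomes of their parents, so their levels can be set against both. C57BL/6J lay at -0.16, DBA/2J at 0.58, A/J at -0.94, BALB/cJ at 0.24 and C3H/HeJ at 0.08. Whether families differ was not tested. Of the 45 BXD strains, 26 lay between C57BL/6J and DBA/2J, 16 below both and 3 above both. Of the 20 AXB/BXA strains, 6 lay between A/J and C57BL/6J, 5 below both and 9 above both. Of the 6 CXB strains 4, and of the 6 BXH strains 2, lay between their parents. Parents and progeny each carry the error of 1 to 3 libraries, and whether strains outside the parental range differ from the nearer parent was not tested.

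**Figure D2:**
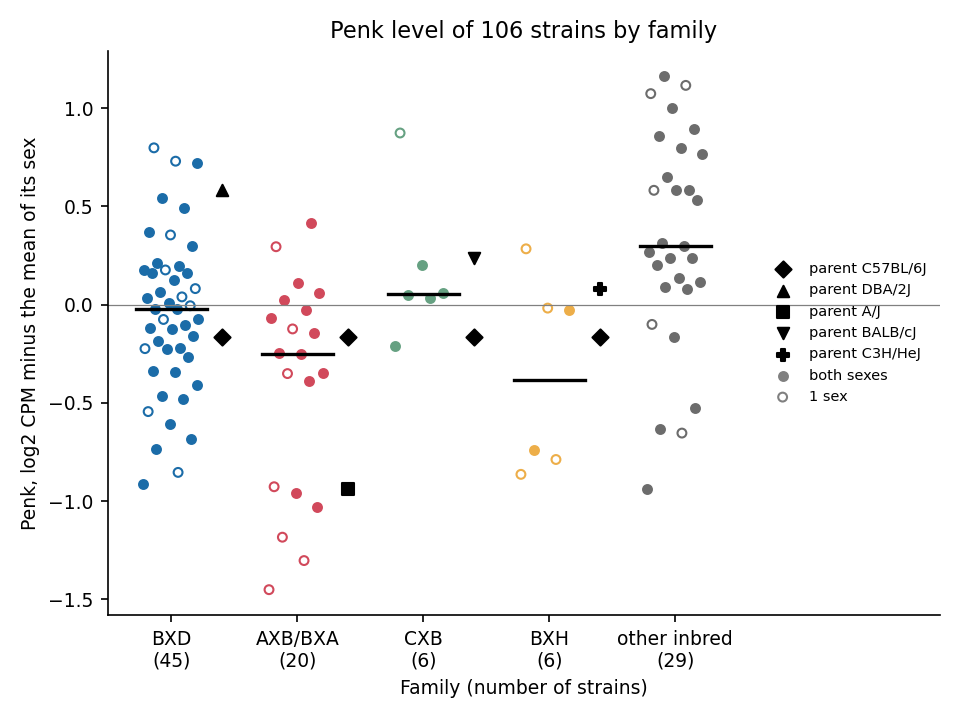
Sex-centred Penk level (log2 CPM minus the mean of the sex) of all strains by family, 1 point a strain, filled where both sexes were sequenced and open where 1 sex was, with a bar at the family median and black symbols for the parents of each recombinant family. AXB/BXA strains reach down to -1.45 and other inbred strains up to 1.16.

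The 3 combinations of strain and sex with 2 libraries show the spread between libraries of a strain and sex, which is technical if both came from 1 mouse. The 2 male MA/MyJ libraries had 12.7 and 12.3 CPM and differed by 0.04 (log2), less than the counting SD of that difference (0.11). The 2 male C57BL/6J libraries differed by 0.19, with a counting SD of 0.14. The 2 female CXB6/ByJ libraries had 1.99 and 3.44 CPM and differed by 0.78, with a counting SD of 0.20. In TPM the same libraries had 2.10 and 1.94, so the size of this difference depends on the scaling. In CPM the first of these pairs thus differed by less than counting error and the last by more.

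The enkephalin system was next described by role, from lists of known genes. Other opioid precursors were close to absent. Pdyn, the prodynorphin gene, had at most 2 counts in any library. Pnoc, the pronociceptin gene, had 0 counts in 36 libraries and at most 19 counts. Pomc, the proopiomelanocortin gene, had 0.24 TPM ± 0.12 in males and 0.26 TPM ± 0.13 in females (SD) and at most 25 counts. None of these 3 passed the filter. Penk, at 7.69 and 3.56 TPM, was the opioid precursor gene with the highest level in these hearts.

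Among the receptors, Oprd1, the delta opioid receptor, was low at 0.19 TPM ± 0.18 in males and 0.22 TPM ± 0.27 in females, with a range from 0 to 2.19 TPM. Oprm1, Oprk1 and Oprl1, the mu, kappa and nociceptin receptors, did not pass the filter and had at most 3, 7 and 6 counts in any library. The nonclassical binding partners were far higher. Ogfr, the opioid growth factor receptor, which binds Met-enkephalin, had 13.1 TPM ± 2.60 in males and 15.3 TPM ± 3.15 in females. Ackr3, an atypical chemokine receptor that also takes up opioid peptides, had 21.4 TPM ± 6.79 and 22.7 TPM ± 7.63.

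**Figure D3:**
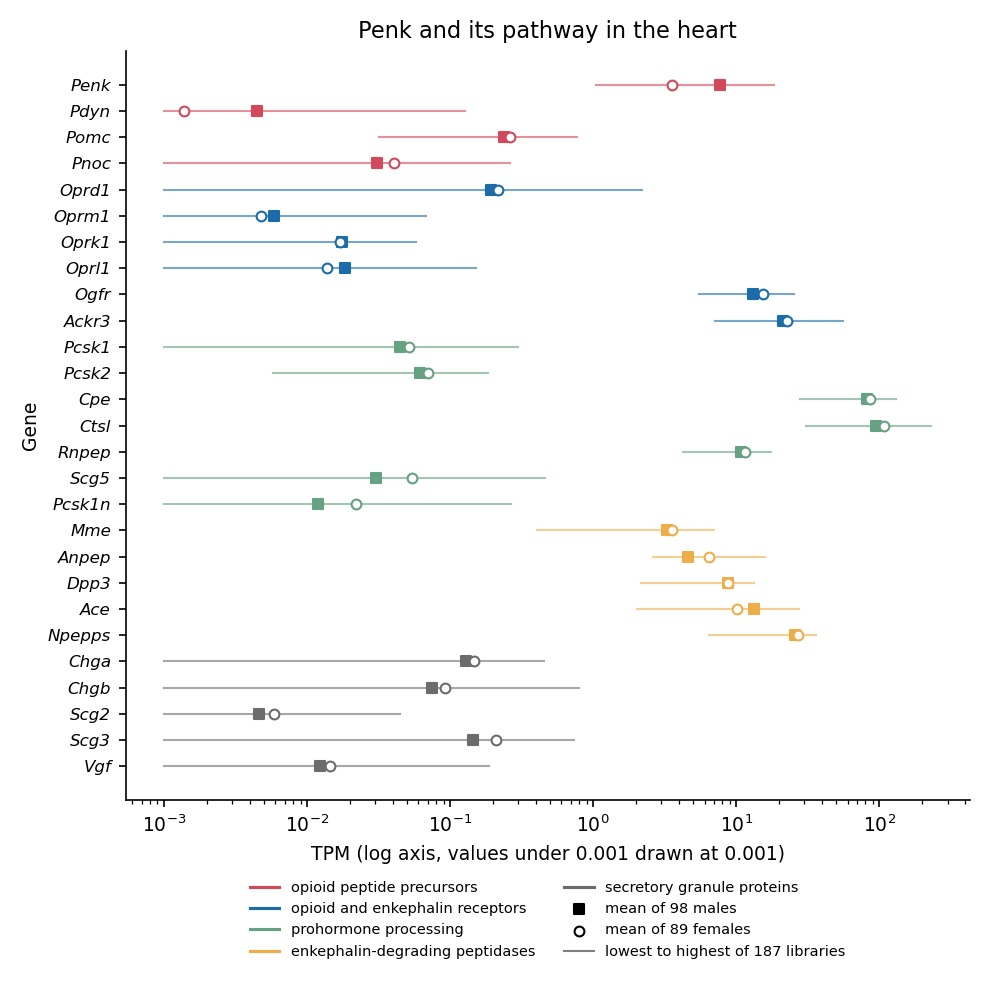
Mean TPM in males (squares) and females (open circles) of Penk and genes of its pathway, with lines from the lowest to the highest library, on a log axis. Penk stands above the other precursors, and Cpe, Ctsl, Ackr3 and Ogfr lie above the classical opioid receptors.

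Sex and strain were tested for these genes in fits across all 15942 genes with edgeR's quasi-likelihood test and Benjamini-Hochberg adjustment, in which 24.8% of genes passed an adjusted p of 0.05 for sex (13.2% higher in males and 11.6% higher in females) and 72.2% passed for strain. Of 52 genes on the lists other than Penk 37 were tested. For sex 9 were higher in males, 7 were higher in females and 21 did not pass, with a median log2 difference of 0.02 against -0.01 over all genes. For strain 31 of 37 passed. The split of the calls differed between settings, with 449 genes higher in males and 5405 higher in females for library totals in place of TMM, and 234 and 6847 for log2(TPM + 1) with limma-trend. With scores of blood, atrial and adipose markers as covariates 8 listed genes passed for sex in place of 16, and Dpp3, Npepps, Gnai3, Adcy6, Atf3, Junb, Esr1 and Acta1 were those named here that no longer did.

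None of the 3 receptors tested passed for sex over all libraries. The difference was -0.04 (SE 0.16, adjusted p = 0.890, edgeR) for Oprd1, and for Ogfr it was -0.07 (SE 0.03, adjusted p = 0.0774, edgeR), or -0.08 with strain as a block (adjusted p = 7.05e-03) and -0.09 in the same strains without it (adjusted p = 0.0274). Ogfr was also called higher in females with library totals (-0.15) and in TPM (-0.21 and -0.22 with pseudocounts of 1 and 0.1). All 3 passed for strain, with an adjusted p of 2.44e-19 for Oprd1, 1.03e-12 for Ackr3 and 1.19e-04 for Ogfr (edgeR). Oprd1 agreed more closely between the sexes of a strain than Penk did (r = 0.79 over 78 strains), and its r with Penk over strains was 0.09.

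Of the genes that process or could process the precursor, Cpe, the carboxypeptidase that trims basic residues after cleavage, and Ctsl, cathepsin L, were abundant. Cpe had 82.5 TPM ± 19.98 in males and 85.5 TPM ± 19.1 in females, and Ctsl had 94.6 TPM ± 26.1 and 107.5 TPM ± 30.5. The neuroendocrine convertases were at the other end of the range: Pcsk1 had 0.04 and 0.05 TPM and Pcsk2 0.06 and 0.07 TPM in males and females. None of the 4 tested genes of this list passed for sex, and 3 of them (Cpe, Ctsl and Rnpep) passed for strain. Cpe was higher in males by 0.08 with strain as a block (adjusted p = 3.44e-03, edgeR), against an adjusted p of 0.155 in the same strains without it and of 0.0835 over all libraries, and its difference was below 0 with library totals and in TPM. Ctsl, at -0.05 with TMM (adjusted p = 0.321, edgeR), was called higher in females with library totals (-0.13) and in TPM (-0.18 with either pseudocount). Proteins of dense secretory granules were low as well, with chromogranin A (Chga) at 0.13 TPM in males and 0.15 TPM in females. Only Scg3 of 5 granule genes was tested, and it was higher in females (0.20 CPM ± 0.14 in males and 0.28 CPM ± 0.19 in females, log2 difference -0.46, SE 0.13, adjusted p = 4.31e-03, edgeR).

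Among the peptidases that degrade enkephalins, 3 of 5 were higher in males, 1 was higher in females and 1 did not pass. Ace, angiotensin-converting enzyme, which also cleaves enkephalins, had 53.7 CPM ± 16.2 in male hearts and 37.4 CPM ± 10.4 in female hearts and was higher in the male of 70 of 78 strains (0.52, SE 0.06, adjusted p = 1.26e-11, edgeR). Anpep, aminopeptidase N, changed in the opposite direction, with 11.3 CPM ± 2.99 in male hearts and 14.6 CPM ± 3.57 in female hearts, and was higher in the male of 15 strains (-0.37, SE 0.05, adjusted p = 4.88e-09, edgeR). Dpp3 and Npepps were slightly higher in males (0.09 and 0.08), but neither passed with library totals (0.0051 and 0.0029), and in TPM with a pseudocount of 1 their values were -0.0126 and -0.0713 and did not pass either. Mme, neprilysin, had 3.27 TPM ± 1.47 in males and 3.56 TPM ± 1.503 in females and did not pass for sex (adjusted p = 0.875, edgeR). All 5 passed for strain.

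In the list of effectors of inhibitory receptors in the heart, Gnao1 was higher in males (0.17, SE 0.06, adjusted p = 0.0199, edgeR), a call lost with library totals (0.0923), in TPM (0.0239 and 0.0213) and over strains with both sexes without the block (0.16), and Gnai3 and Adcy6 were higher in females (-0.10 for each after rounding, adjusted p = 0.0421 and 0.0318, edgeR), calls lost over strains with both sexes without the block (adjusted p = 0.229 and 0.0867), and for Gnai3 also with the block (0.205), with no filter (0.0674) and with the title number as covariate (0.101), whereas Gnai1, Gnai2, Kcnj3, Kcnj5 and Adcy5 did not pass. Kcnj3 and Kcnj5 encode the subunits of the atrial acetylcholine-activated potassium channel. For strain 7 of the 8 passed. Gnai3 did not with edgeR (adjusted p = 0.228) but did with limma-trend on log2 CPM (adjusted p = 0.0411).

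The Penk promoter is known to respond to cAMP through CREB and AP-1 proteins, so these factors were listed. Of 9, Atf3, Junb and Jund were higher in males and Creb1 was higher in females. Atf3 differed by 0.29 (SE 0.09, adjusted p = 0.0135, edgeR) and Creb1 by -0.15 (SE 0.03, adjusted p = 2.05e-06, edgeR). The differences of Atf3 and Junb did not pass with library totals (0.20 and 0.10) or in TPM (0.0641 and 0.0471 with a pseudocount of 1), and that of Junb (0.19 here) did not pass with strain as a block either (0.13). Fos ranged from 0.12 to 13.6 TPM and did not pass for sex (0.38, SE 0.18, adjusted p = 0.120, edgeR). The r of the 9 factors with Penk over strains lay between -0.14 for Crem and 0.21 for Junb.

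Of the receptors for sex steroids, Esr1, estrogen receptor alpha, was low, with 0.68 CPM ± 0.29 in male hearts and 0.89 CPM ± 0.41 in female hearts, and was higher in females (-0.38, SE 0.09, adjusted p = 5.40e-04, edgeR). Esr2 and Pgr did not pass the filter. Of the cardiac stress genes, Acta1 (0.83, SE 0.21, adjusted p = 1.01e-03, edgeR) and Ankrd1 (0.58, SE 0.10, adjusted p = 1.42e-06, edgeR) were higher in males, and Nppa, Nppb and Myh7 did not pass. Nppb passed with strain as a block (0.32, adjusted p = 0.0228, edgeR) but not in the same strains without it (0.23, adjusted p = 0.332). Their r with Penk over strains was between -0.08 (Acta1) and 0.17 (Myh7).

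Markers of other cells and tissues moved with sex in part, where 13.2% of all genes tested were higher in males and 11.6% higher in females. Of the fibroblast markers 5 of 8 were higher in females and none in males, of the adipose markers 2 of 5 tested were higher in females, of the blood markers 1 of 5 was higher in males, and of the atrial, endothelial, macrophage, lymphocyte and mesothelial markers none passed. In each direction 1 of 8 cardiomyocyte markers and 1 of 5 Schwann cell and neuron markers passed, 1 of 6 smooth muscle and pericyte markers was higher in females, 2 of 3 skeletal muscle markers were higher in males, and no lung marker passed the filter. The 2 skeletal muscle markers were Ckm, at 1468 TPM in males and 1435 TPM in females, and Acta1, listed above among cardiac stress genes. Myh2 did not pass (-0.13, adjusted p = 0.807, edgeR), and Myh1 and Myh4 did not pass the filter. Ckm, Acta1 and Myh2 make up the score of this list, which does not measure skeletal muscle alone. The fibroblast score was lower in males by 0.15 on average and the adipose score by 0.83, opposite to Penk, whereas the blood score was higher in males by 0.42 (44 of 78 strains) and the skeletal muscle score by 0.28 (59 of 78 strains), in the direction of Penk. Over strains, the score of each list (mean log2 CPM of its genes) had an r with Penk between -0.07 (smooth muscle and pericyte) and 0.25 (Schwann cell and neuron), with 0.23 for adipose, 0.10 for blood, 0.04 for atrial and -0.01 for fibroblast markers. When Penk was taken from one sex and the score from the other, which share no library, the Schwann cell and neuron values were 0.04 and 0.03. The adipose values were 0.18 with Penk of males and -0.02 with Penk of females. The part of these cells and tissues in the levels of Penk was not tested.

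Correlation over strains was then used to ask which genes had a pattern like that of Penk. For each of 13156 other genes whose mean reached 1 CPM, r was computed over the 78 strains from sex-centred strain means. These values share libraries, depth and composition, and strains of 1 family share haplotypes. The median absolute r was 0.13 and its 95th percentile was 0.33, and r exceeded 0.5 for 4 genes and was below -0.5 for 7. The genes of highest r were Ptges (0.54), Clec1b (0.52), Fbxl12 (0.52), Rasd1 (0.51), C1qtnf6 (0.49), Cyp2d22 (0.49), Zfp868, B3gnt8 (0.49), Sumf2 (0.49) and Crip1 (0.48). The genes of lowest r were Stbd1, Scarb2 (-0.55), Abcc4 (-0.55), Rrn3 (-0.52) and Exoc5 (-0.51). No value of r is given for Zfp868 and Stbd1 over all strains, because their levels fell into separate clusters of strains.

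Ptges (chromosome 2, 30889471 to 30929863), the inducible prostaglandin E synthase, was low, at 1.35 CPM ± 0.37 in males and 1.55 CPM ± 0.57 in females. RIIIS/J had 2.23 CPM in the male and 4.38 CPM in the female, and BXA8/PgnJ, with low Penk, had 0.72 and 1.22 CPM. SWR/J, with the highest Penk, had an intermediate 1.52 and 1.61 CPM, so the relation did not hold at every strain. The r was 0.44 within BXD strains, 0.66 within AXB/BXA strains and 0.38 within other inbred strains, and was 0.53 without SWR/J and BXA8/PgnJ, the strains farthest from the Penk median. Between Penk of males and Ptges of females r was 0.37, and in the reverse direction it was 0.15. Rasd1, a dexamethasone-inducible Ras-like protein, had 0.38, 0.19 and 0.63 in the 3 families. Clec1b, a receptor of platelets, had 0.03 within BXD strains and 0.65 within other inbred strains. C1qtnf6, a secreted C1q-like protein, had -0.43 within BXD strains, 0.57 within AXB/BXA strains and 0.48 within other inbred strains, so that its value over all strains does not describe BXD.

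Stbd1 (chromosome 5, 92603041 to 92606579), a glycogen-binding protein, and Scarb2 (chromosome 5, 92441314 to 92506833), a lysosomal membrane protein, start 161.7 kb apart. Stbd1 was at sex-centred levels between -4.04 and -2.10 in 11 strains and between -0.50 and 1.71 in the other 67, with no strain between. The 11 strains, all of them in the other inbred group, were 129X1/SvJ, CE/J, FVB/NJ, KK/HlJ, MA/MyJ, NOD/ShiLtJ, NON/ShiLtJ, NZB/BlNJ, RIIIS/J, SJL/J and SWR/J. Their Penk levels ran from 0.09 to 1.16 and those of the other strains from -1.03 to 0.72, and these ranges overlap. Within the 11 strains r between Stbd1 and Penk was -0.09 and within the other 67 it was -0.18. In SWR/J, with the highest Penk, Stbd1 was at 0.50 CPM in the male and 0.41 CPM in the female. In A/J, with low Penk, it was at 5.59 and 8.79 CPM. The relation over all strains thus rests on the difference between the clusters. Scarb2 was low in the same strains: its sex-centred level was -1.06 to -0.26 in the 11 strains with low Stbd1 and -0.37 to 0.35 in the other 67. Within the 11 strains r between Scarb2 and Penk was -0.46 and within the other 67 it was -0.08, so the value over all strains (-0.55) is not separate from that of Stbd1. Zfp868, a zinc finger gene on chromosome 8, likewise had 12 strains at 0.76 to 1.49 and 66 at -0.48 to 0.13, with r of 0.53 and 0.21 within them.

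**Figure D4:**
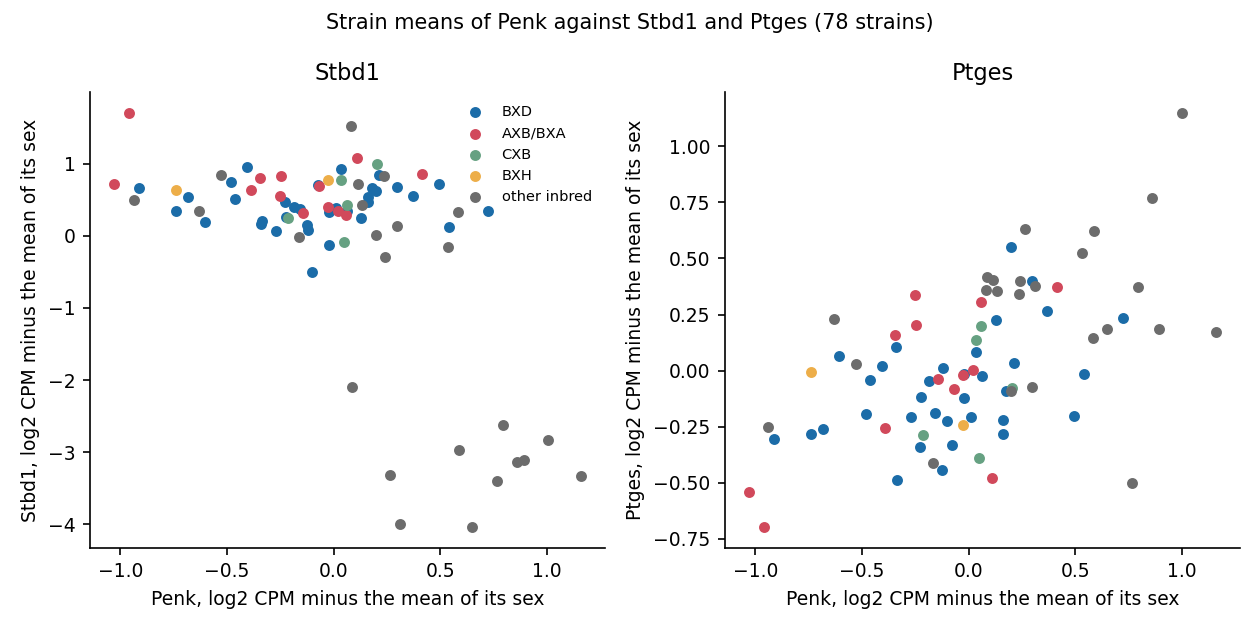
Sex-centred strain means (log2 CPM minus the mean of the sex) of Stbd1 (left) and Ptges (right) on the y axis against Penk on the x axis, 78 strains, colors as in the plot of the sexes. Stbd1 shows 11 strains at or below -2.10, apart from the other 67, while Ptges rises gradually with Penk.

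In the cross-sex values Penk and the other gene come from different animals, but these values are part of the r over strain means by which the 15 genes were picked and are no separate check. For the 13 genes without clusters the mean of the 2 cross-sex values was between 0.19 (Rrn3) and 0.42 (Scarb2) in absolute size, and the 95th percentile over all genes was 0.20. These likenesses depended on the unit. On log2(TPM + 1) the median r of all genes with Penk moved from -0.01 to 0.40 and 2409 genes had an absolute r over 0.5. Penk itself, on that scale, had an r of -0.56 with the share of TPM from the mitochondrial genome, against -0.33 in CPM. Abcc4, Rrn3 and Exoc5 had positive values of r in TPM. With the mitochondrial share regressed out, r of the 13 genes without clusters was between 0.40 and 0.49 in absolute size.

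Genes near Penk were compared with it as well. Within 2 Mb of its start 29 other genes were in the tables and 10 were tested, among them Impad1, Fam110b, Chchd7, Rps20, Plag1, Lyn, Tgs1 and Tmem68. Their r with Penk over strains lay between -0.25 (Impad1) and 0.25 (9430025C20Rik). The cross-sex values were -0.05 in both directions for Impad1, and 0.06 and 0.17 for 9430025C20Rik. Among the 100 genes of highest absolute r in the whole set, 3 were on chromosome 4, which holds 6.01% of the genes compared, and 0 were within 10 Mb of Penk.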

How the data were processed

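Heart libraries, 98 from males and 89 from females, were sequenced as paired reads from a poly(A) library kit; whether the 2 libraries of 3 combinations of strain and sex are separate mice is not stated. The authors quantified reads with kallisto 0.46 (GRCm38.p6, per the labels) and deposited estimated counts per gene and TPM, without pooling. Groups are the labelled sexes, and strains come from the labels.

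Estimated counts were rounded and tested with edgeR 4.0.16 (quasi-likelihood, TMM, filterByExpr, Benjamini-Hochberg adjustment over 15942 genes): sex over all libraries, and strain with sex as covariate over the libraries of 78 strains with both sexes. P-values for sex measure the spread between libraries, mostly single hearts of different strains. Log2 CPM used a prior count of 2. The male and female of a strain share its genotype, so strain paired them in the alternative with a block. Other alternatives were DESeq2 1.42.0, limma-trend (limma 3.58.1) on log2(TPM + 1) and log2(TPM + 0.1), other scalings, no filter and marker scores as covariates; those with the mitochondrial share, within families, within strain clusters and without 1 library were added after seeing the data.

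Penk and all gene lists were chosen with earlier results of these data known. Named were at most 4 passing genes per list with the largest change, the 10 highest and 5 lowest r, genes within 2 Mb, and the 5 highest and 5 lowest strains; other genes given were chosen after their values were seen. Levels were called clustered where a gap of over 20% of the range left at least 3 strains on each side. Data for sex were simulated with the same dispersion for every gene and no strain differences. In them edgeR recovered 96% of changes of 0.3 and 100% of changes of 0.6 (log2) with 8 false calls among 15942 genes. In the real libraries 72.2% of genes passed for strain, so these rates need not hold for them. A gene of a list is not reported here.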

Additional observations from a re-analysis of the deposited data

How the results depend on the processing

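The mean difference of Penk within strains was 1.14 when totals replaced TMM. It was 0.95 on log2(TPM + 1) and 1.14 on log2(TPM + 0.1), and the male was higher in 73, 71 and 71 of 78 strains. The agreement of the sexes was 0.44 to 0.46 in these units and 0.39 with the mitochondrial share regressed out, but 0.18 within BXD, 0.59 within AXB/BXA and 0.55 within other inbred strains. The number of genes with an absolute r over 0.5 with Penk was 11 here, 189 when totals replaced TMM, 2409 with TPM at a pseudocount of 1 and 2338 at 0.1, and 7, 2 and 2 of the 15 genes remained among the highest and lowest. The sign of r turned for Rrn3 (0.0625 with totals, 0.34 and 0.35 in TPM), Exoc5 (0.0140 with totals, 0.27 in TPM with either pseudocount), Abcc4 (0.20 and 0.21 in TPM) and Scarb2 (0.0024 on log2(TPM + 0.1)), within BXD strains for C1qtnf6 (-0.43) and Stbd1 (0.0401), and within AXB/BXA strains for Zfp868 (-0.0590) and Sumf2 (-0.0129).

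Sex calls over all genes differed between settings; those in TPM change the unit and the tool (limma-trend) together. Against 2097 genes higher in males and 1857 higher in females (3954), library totals, which change the scaling alone, gave 449 and 5405, log2(TPM + 1) gave 234 and 6847 (7081), log2(TPM + 0.1) gave 226 and 6704 (6930), and marker scores as covariates gave 1291 and 1040 (2331), where 8 of the listed genes passed in place of 16. The median difference of all genes moved from -0.01 to -0.09 with totals and to -0.08 and -0.12 in TPM. The cause was not tested. With strain as a replicate block, which pairs the sexes of a strain, 4992 genes and 17 listed genes passed, against 3213 and 11 in the same libraries without it. DESeq2 and its size factors kept the call of all 25 named list genes.

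Directions turned for genes with small differences. With totals they were -0.0522 for Ackr3, -0.0075 for Cpe, -0.0728 for Rnpep and -0.10 for Myh7. On log2(TPM + 1) and log2(TPM + 0.1) they were -0.0849 and -0.0893 for Ackr3, -0.0544 and -0.0550 for Cpe, -0.0979 and -0.11 for Rnpep, -0.0126 and -0.0160 for Dpp3, -0.0713 and -0.0742 for Npepps, -0.0302 and -0.0319 for Kcnj5, and -0.0427 with either for Myh7. The block gave 0.11 for Oprd1 and -0.0282 for Myh7, which was -0.0895 without the block in those strains and -0.0217 with the title number as covariate. Marker scores gave 0.0548 for Oprd1 and -0.0077 for Rnpep. Single libraries for nearly every strain and sex, and counts of 44 to 823 for Penk, limit the order of strains.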
